A study of Mus musculus with 6 samples.

Results

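Alkaline phosphatases are zinc enzymes that remove phosphate groups outside the cell, and the mouse genes followed here are Alpi, Akp3, Alppl2 and Alpl. They were chosen by gene symbol, and all 4 were found among the 19938 genes tested, each with 1 probe set that carries 1 symbol. RNA from the entire ileum, the distal small intestine, of 6 mice was hybridised to mouse Gene 1.0 ST arrays, 1 array per mouse. The 3 control mice were Villin-CreERT2 animals, in which the Villin promoter drives, in intestinal epithelium, a Cre recombinase that tamoxifen switches on. The other 3 mice, labelled Gata6 KO, were Villin-CreERT2 animals crossed to GATA6 flox/flox mice, so that Cre can delete Gata6, a zinc finger transcription factor, in the epithelium. Tamoxifen (100 mg/ml) was given to both groups for 5 days when the mice were 6 to 8 weeks old, and ileum was taken 28 days later, at 10 to 12 weeks. The strain is not given in the labels. Whole ileum also holds muscle, connective tissue, vessels and immune cells, in which the Villin promoter is not active.

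The intestinal enzymes sit on the brush border of enterocytes through a glycosylphosphatidylinositol (GPI) anchor and are shed into the lumen. There they dephosphorylate bacterial endotoxin and nucleotides, and they are classical markers of the mature absorptive cell. The tissue-nonspecific enzyme encoded by Alpl is known for bone mineralization and for the dephosphorylation of vitamin B6, and neutrophils, endothelium and other cells carry it.

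Values below are log2 signals as deposited, so a difference of 1 is a doubling. Gata6 itself rose rather than fell in the arrays labelled Gata6 KO, by 0.49 (SE 0.08, n = 3 per group, limma adjusted p = 0.0162), so directions are given for the labels. That call was lost without control replicate 1 (0.0501) or without Gata6 KO replicate 1, 2 or 3 (0.0584, 0.0573 and 0.0623). The position of its probe set relative to the floxed part was not analysed here. The enterocyte markers of the ileum were present, with Fabp6, the ileal bile acid binding protein, at 10.44 to 10.67 in controls. Control replicate 3 had the Xist and Eif2s3y signals of a male (2.31 and 5.30) and the other arrays those of females. Car1, a carbonic anhydrase of the colon, stood at 10.96 in control replicate 1, at 5.68 and 6.87 in control replicates 2 and 3, and at 12.14 or more in the KO-labelled arrays. Each member is also given below without control replicate 1 and without control replicate 3.

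Alpi, Akp3 and Alppl2 are neighbours on chromosome 1, with no other protein-coding gene of the annotation between them, while Alpl lies on chromosome 4. The RefSeq promoter table (assembly GRCm38.p6) holds 5 annotated starts for the 4 genes, 1 each for the cluster genes and 2 for Alpl. The 250 bases before the starts of the cluster genes are shown because they share 2 runs of letters that the family has in common only within the cluster. The runs, in capitals, are TTCAGTTCACAGG and GGGTGGGGCCAGG, each 13 bases long.
Alpi, chr1:87101607-87101856, minus strand: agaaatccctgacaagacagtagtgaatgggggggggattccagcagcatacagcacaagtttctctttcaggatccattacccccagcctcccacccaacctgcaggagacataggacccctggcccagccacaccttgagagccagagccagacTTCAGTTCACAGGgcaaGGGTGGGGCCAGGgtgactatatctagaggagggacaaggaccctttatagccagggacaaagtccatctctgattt
Akp3, chr1:87124704-87124953, plus strand: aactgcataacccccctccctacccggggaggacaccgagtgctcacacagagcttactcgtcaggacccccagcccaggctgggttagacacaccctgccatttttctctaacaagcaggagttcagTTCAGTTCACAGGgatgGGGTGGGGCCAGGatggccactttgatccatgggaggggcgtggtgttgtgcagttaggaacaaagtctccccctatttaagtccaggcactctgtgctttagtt
Alppl2, chr1:87089929-87090178, minus strand: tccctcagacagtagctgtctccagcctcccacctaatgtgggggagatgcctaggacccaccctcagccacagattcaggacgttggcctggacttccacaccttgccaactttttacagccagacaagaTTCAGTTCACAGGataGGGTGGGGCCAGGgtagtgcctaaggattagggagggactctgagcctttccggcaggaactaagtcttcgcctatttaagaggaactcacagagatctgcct

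In all 3 sequences the runs stand in the same order, with 4 bases between them in Alpi and Akp3 and 3 in Alppl2. The second run ends 64 bases before the start of Alpi, 92 before that of Akp3 and 90 before that of Alppl2. Over 32851 annotated starts, searched on both strands, the first run was found in 9 promoters (0.0274%) and the second in 15 (0.0457%), and the 3 cluster genes were the ones with both. Neither run was found before the starts of Alpl. Aligned end to end, the promoters of the cluster were 51.0% to 55.5% identical to each other, and those of Alpl were 42.8% to 46.2% identical to the cluster's. The word AGATAA of GATA sites was searched on both strands, together with its variant AGATAG and with the matching pair that opens with T, written TGATAA for the former and TGATAG for the latter. None was found before any of the 5 starts, and 26.5% of all promoters of this length hold at least 1 of them. CAAAGT, a word of HNF4 sites, was found once before the start of Alpi, 13 bases away, and at 2 places before Akp3, on opposite strands, against 12.6% of all promoters with it. It was also found before both starts of Alpl and not before Alppl2. CACCC, a word that KLF factors bind, was found before all 5 starts, and 52% of all promoters hold it; its minus-strand matches overlap the second shared run in each cluster promoter, at 2 places in Alpi. TTTATA, a word of CDX sites, was found once before Alpi, 27 bases from the start, and once before the downstream start of Alpl, against 12.4% of promoters, while TTTATG was found before none, against 10.8%. GTTAAT, a word of HNF1 sites, was found once, before the downstream start of Alpl, against 6.43% of promoters. Such matches are descriptions of the letters and do not show binding.

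**Figure D1:**
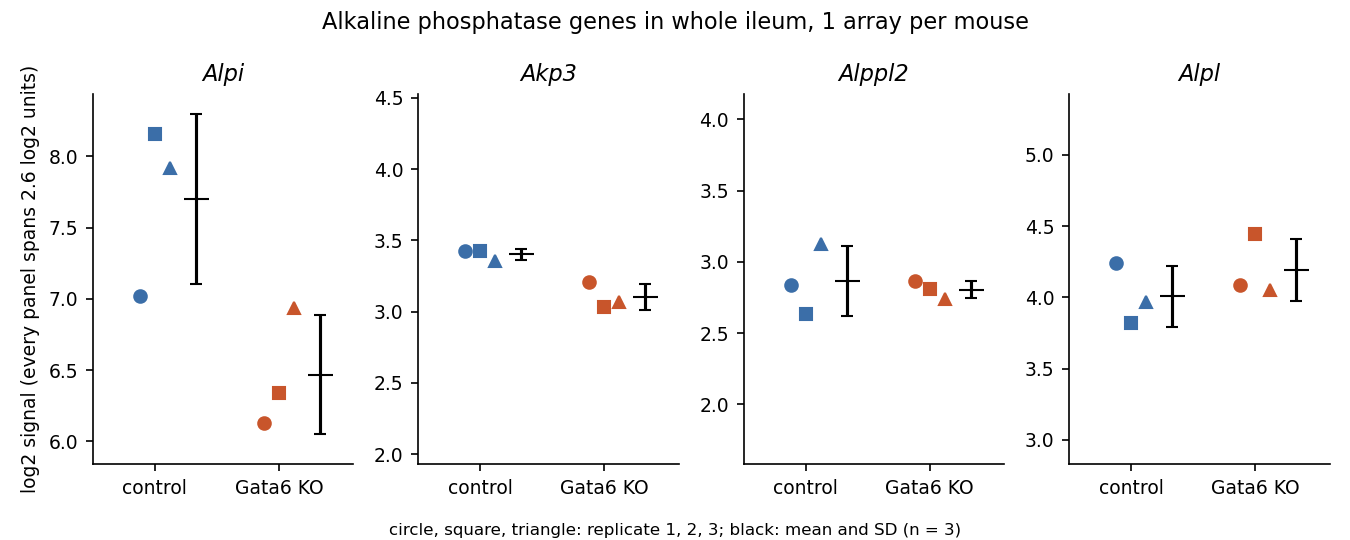
Log2 signal of Alpi, Akp3, Alppl2 and Alpl in each control mouse (blue) and each mouse labelled Gata6 KO (orange), with mean and SD (n = 3); every panel spans the same number of log2 units. The groups do not overlap for Alpi and Akp3 and overlap for Alppl2 and Alpl, and the spread between mice is widest for Alpi.

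Alpi, which encodes the intestinal enzyme found along the whole small intestine, read 7.02, 8.15 and 7.92 in control replicates 1, 2 and 3. In the KO-labelled arrays it read 6.13, 6.34 and 6.93. Every KO-labelled mouse was thus below every control, but by a narrow margin, since the highest KO-labelled value lay 0.09 under the lowest control. The means were 7.70 ± 0.60 and 6.47 ± 0.42 (SD, n = 3), a log2 difference of -1.23 (SE 0.32, 95% interval -1.98 to -0.48), or 2.35-fold. It did not pass at a limma adjusted p of 0.0611 (unadjusted p = 0.00586 in the same fit). Of all 19938 genes, 142 had a more negative difference, and 1909 had a smaller p.

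Akp3 encodes the duodenal form of the intestinal enzyme. It read 3.43, 3.42 and 3.36 in controls and 3.21, 3.03 and 3.06 in KO-labelled arrays. The controls lay close together and above the other group, yet the whole range over the 6 mice was 0.39. The log2 difference was -0.30 (SE 0.08, 95% interval -0.49 to -0.12), and it did not pass at a limma adjusted p of 0.0629 (unadjusted p = 0.00614). It was -0.29 without control replicate 1 and -0.32 without control replicate 3 (limma adjusted p = 0.142 and 0.127). On 4 of the 6 arrays Akp3 lay below the array's median signal, and it was not shown to lie above background.

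Alppl2, the embryonic and germ cell form, read 2.84, 2.64 and 3.13 in controls and 2.87, 2.81 and 2.74 in KO-labelled arrays, below the array median on all 6. The KO-labelled values lay inside the control range. Its log2 difference was -0.06 (SE 0.13, 95% interval -0.36 to 0.24, limma adjusted p = 0.811). It was -0.08 without control replicate 1 and turned positive with quantile normalization (0.03), without control replicate 3 (0.07) and without control replicates 1 and 3 (0.17).

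Alpl, the tissue-nonspecific gene, read 4.24, 3.82 and 3.97 in controls and 4.09, 4.44 and 4.05 in KO-labelled arrays. The groups overlapped, with the highest value in Gata6 KO replicate 2 and the lowest in control replicate 2. The log2 difference was 0.18 (SE 0.15, 95% interval -0.16 to 0.53, limma adjusted p = 0.488). A doubling lies outside the interval, while no change, a decrease of up to 0.16 and an increase of up to 0.53 lie inside it. Single arrays moved this value: leaving out control replicate 1, 2 or 3 gave 0.30, 0.09 and 0.16, and leaving out Gata6 KO replicate 2 gave 0.06. Alpl did not pass in any of these fits (limma adjusted p = 0.295 to 0.858).

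No member therefore passed at a limma adjusted p under 0.05, against 8.24% of all genes, 4.99% higher and 3.25% lower. At an unadjusted p under 0.05 there were 2 of 4, Alpi and Akp3, both lower, against 10.3% of all genes that were lower at that level. Without moderation none of the 4 passed. The groups did not overlap, with the KO-labelled arrays lower, for 2 of 4 members, against 12.6% of all genes; they were apart with the KO-labelled arrays higher for none, against 16.8%, and in either direction for 2 of 4, against 29.3%. Alpi was the 1 member at least 2-fold lower, as were 1.08% of all genes. The counts of genes called higher and genes called lower, 995 and 648, were 1562 and 565 with arrays centred on their medians and 632 and 1010 relative to the epithelial markers. Probe sequences were not used here. The cluster genes are related in sequence, so signal shared between their probe sets was not tested.

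The place of Alpi beside the threshold depended on the setting. Its adjusted p was 0.0430 with arrays centred on their medians, 0.0402 with quantile normalization and 0.0169 relative to the epithelial markers. It was 0.0294 and 0.0289 when only genes with a mean of at least 4 or 6 were tested. It was 0.142 with every probe set tested, 0.0902 with trend and robust moderation, 0.0640 with array weights and 0.230 without moderation, none of which passed. Without control replicate 1 the difference grew to -1.57 and passed (0.0230). Without control replicate 2 or 3 it was -1.003 and -1.12 (0.129 and 0.191), and without Gata6 KO replicate 1, 2 or 3 it was -1.06, -1.17 and -1.46 (0.181, 0.195 and 0.0731). The difference was negative under every alternative, from -1.69 (without control replicates 1 and 3, adjusted p = 0.157) to -1.003. Akp3 ran from -0.39 to -0.23 over its alternatives and passed only with array weights (0.0492).

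**Figure D2:**
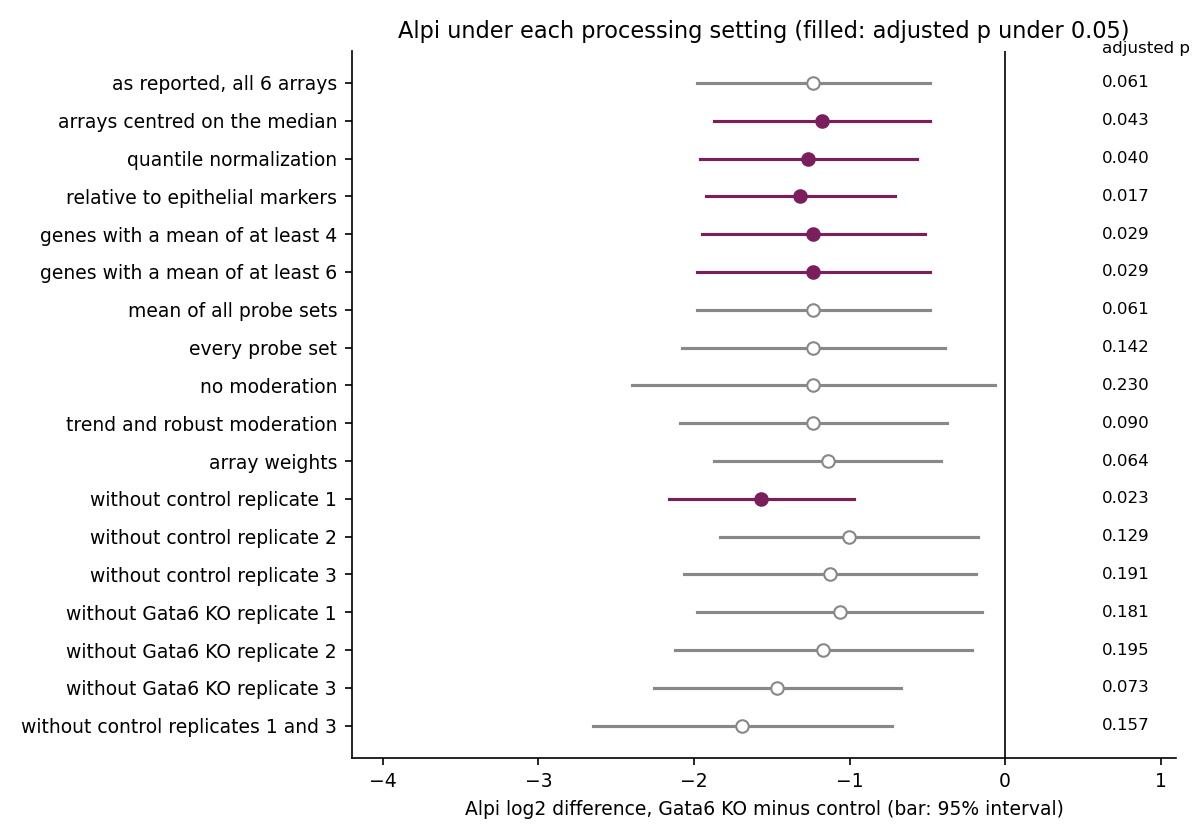
Log2 difference of Alpi, Gata6 KO minus control, with its 95% interval and adjusted p, as reported and under each alternative scaling, filter, model and left-out array. All intervals lie below 0, while the adjusted p falls on either side of 0.05, from 0.0169 to 0.230.

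Whether the members differed from each other in their change was asked within each array, as the log2 value of one minus that of another, over 6 pairs. Alpi minus Alpl was 3.69 ± 0.81 in controls and 2.27 ± 0.53 in KO-labelled arrays (SD, n = 3), a change of -1.42 (SE 0.56; two-sided exact permutation p = 0.2, adjusted 0.3). Alpi minus Akp3 changed by -0.93 (SE 0.45) and Alpi minus Alppl2 by -1.17 (SE 0.47), both with overlapping groups and the same exact p. Akp3 minus Alpl was the pair whose groups did not overlap, with a change of -0.49 (SE 0.20) at an exact p of 0.1, the smallest that 3 against 3 can give (adjusted 0.3). Akp3 minus Alppl2 and Alppl2 minus Alpl changed by -0.24 (SE 0.17) and -0.25 (SE 0.21) at an exact p of 0.3 and 0.4. None of the 6 pairs could have passed an adjusted 0.05 in a design of this size.

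Alpi was then set beside other hydrolases of the brush border, a list of 19 measured genes chosen with earlier results of these data known. In the KO-labelled arrays 13 of these fell, 0 rose and 6 did not pass. The share called was 68.42% against 8.24% of all genes. The median log2 difference was -1.11 against 0.00 over all genes. For 4 of the 19 the mean over the 6 arrays lay below the lowest array median, and these were not shown to lie above background. The value of Alpi, -1.23, sits inside that list: 7 of the 19 were lower still, led by sucrase-isomaltase, Sis, which fell by 3.61 (SE 0.40), and 12 were less negative. The aminopeptidase Enpep fell by 2.11 (SE 0.18), the maltase-glucoamylase Mgam by 1.80 (SE 0.10) and the peptidase Ace by 1.36 (SE 0.12). Sis and these genes had limma adjusted p of 3.04e-04 to 0.00319, and each kept its call without any 1 array. The count of those that fell was 8 without Gata6 KO replicate 2 or with every probe set tested, 3 without moderation and 0 without control replicates 1 and 3.

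Within each array, Alpi minus the mean of these hydrolases was 0.21, 0.95 and 0.69 in control replicates 1 to 3 and 0.35, 0.55 and 0.84 in the KO-labelled arrays. The groups overlapped, at 0.62 ± 0.38 and 0.58 ± 0.25 (SD, n = 3), and the change was -0.04 (two-sided exact permutation p = 1). Alpi minus the mean of 7 ileal enterocyte markers also overlapped, with a change of 0.17 (exact p = 0.3). Against the mean of 12 markers of all intestinal epithelium the groups stayed apart, with values of -1.97, -0.82 and -1.15 in controls and -2.89, -2.78 and -2.23 in KO-labelled arrays, a change of -1.32 (exact p = 0.1). These comparisons were chosen after the values of Alpi were seen. The hydrolase mean includes 4 genes that lay below the lowest array median, and the comparison was not repeated without them. In whole tissue, fewer cells of a type and less RNA per cell cannot be told apart.

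**Figure D3:**
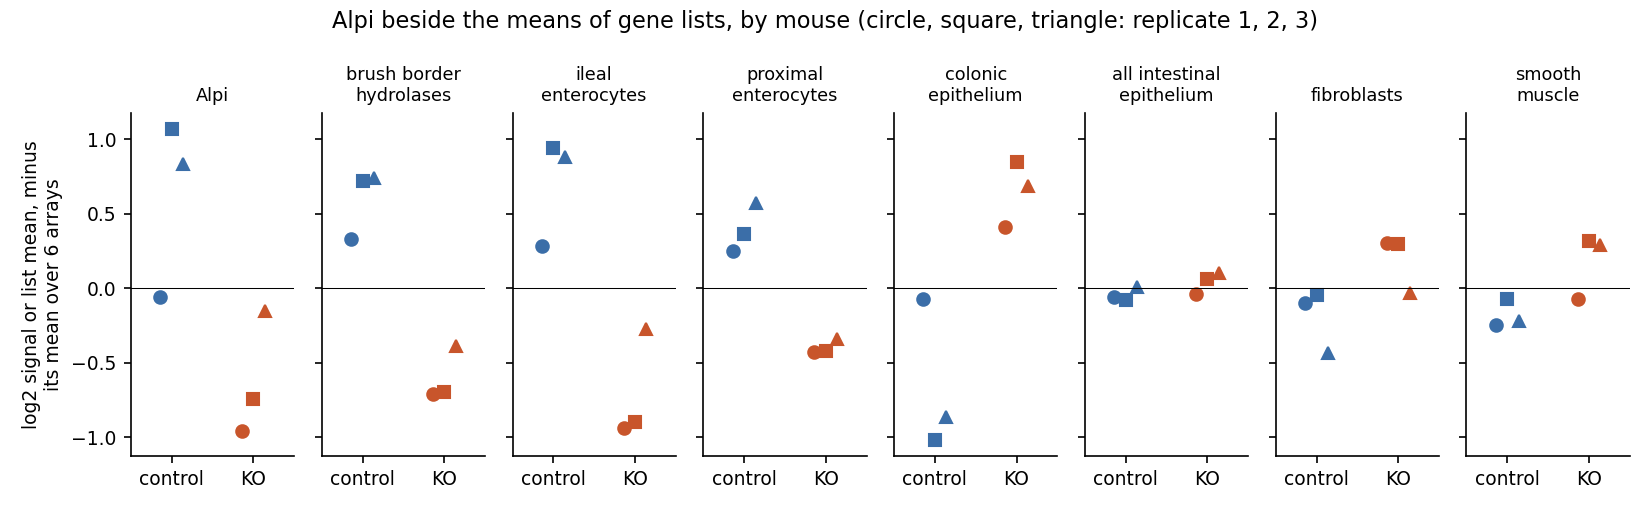
Log2 signal of Alpi and mean log2 signal of 7 gene lists in each mouse, each minus its own mean over the 6 arrays, with controls in blue and KO-labelled arrays in orange. Alpi, the hydrolases and the ileal markers are lower in the KO-labelled mice with control replicate 1 the lowest control, the colonic markers are higher, and the epithelial markers lie close to 0.

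Several marker lists moved with Alpi. For comparison, 8.24% of all genes passed, 4.99% higher and 3.25% lower. The mean of the ileal enterocyte markers was 7.97 to 8.63 in controls and 6.75 to 7.41 in KO-labelled arrays, and 5 of 7 fell. For the proximal enterocyte markers it was 4.76 to 5.08 and 4.08 to 4.16, with 4 of 10 lower, 2 of 10 without Gata6 KO replicate 1 or 2, and 1 higher. The mean over the 6 arrays lay below the lowest array median for 3 of the 10 proximal and 2 of the 13 colonic markers. Those genes were not shown to lie above background. The colonic markers went the other way, from 5.13 to 6.08 up to 6.57 to 6.999, with 5 of 13 higher. The 1 that was lower, Ang4, was named after its value was seen and lost its call without any 1 control or Gata6 KO replicate 2 (0.0519 to 0.0926). Control replicate 1, the control with the lowest Alpi, had the highest colonic mean of its group (6.08) and the lowest ileal mean (7.97). The markers of all epithelium stood at 8.97 to 9.06 and 9.01 to 9.16; of 12, Esrp1 and Krt19 rose and Vil1, which encodes the microvillus protein villin, fell. Krt19 lost its call without any 1 array (0.0704 to 0.135), and Vil1 without control replicate 3 or any 1 of the KO-labelled arrays (0.0607 to 0.0954). The fibroblast mean was 7.31 to 7.70 and 7.72 to 8.05, with 0 of 10 called (5 at an unadjusted p under 0.05), and the smooth muscle mean 7.56 to 7.73 and 7.74 to 8.12, with 1 of 10, Tagln, higher. In a list of 10 genes that 1 call, 10% against 8.24% of all genes, is not read as a result about muscle. The part of these cell types and regions in the values of Alpi was not tested. Of those lists, the ileal count was 2 without control replicate 3 or without Gata6 KO replicate 1 or 2 and 3 without control replicate 2; Tagln lost its call without control replicate 1 or 3 or without Gata6 KO replicate 2 or 3.

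The cells known to carry Alpl outside the epithelium were looked at through their markers. Endothelial markers had means of 4.54 to 4.59 and 4.57 to 4.66, with 0 of 12 called (1 at an unadjusted p under 0.05), against 8.24% of all genes called. Neutrophil markers had means of 2.80 to 3.06 and 2.84 to 3.24, and the mean of 11 of 14 over the 6 arrays lay below the lowest array median. Cd177 and Retnlg rose and Ltf fell, but Retnlg (1.65 to 2.03) and Ltf (2.80 to 2.20) are among those 11 and were not shown to lie above background. The defining markers S100a8 and S100a9, named after their values were seen, are among them too and did not pass (limma adjusted p = 0.778 and 0.994). Cd177 had a mean of 7.43 in controls and 9.175 in KO-labelled arrays. Mmp9 and Itgam, also named after their values were seen, are not among those 11. Neither passed (limma adjusted p = 0.278 and 0.937), and Itgam had means of 5.77 and 5.72. The part of neutrophils in the rise of Cd177 was not tested. Retnlg lost its call without any 1 array (0.0766 to 0.130) and Ltf without any but control replicate 2 (0.0609 to 0.104). Of 7 partners of Alpl in mineralization none was called (2 at an unadjusted p under 0.05), with a median of -0.05. B and T cell markers had means of 3.41 to 3.51 and 3.37 to 3.63, with 0 of 12 called (1 at an unadjusted p under 0.05). The mean over the 6 arrays lay below the lowest array median for 4 of the 7 partners and 6 of the 12 markers. These genes were not shown to lie above background, which limits both counts. Without moderation no gene of the endothelial, mineralization or lymphocyte lists passed either. The part of these cells in the values of Alpl was not tested.

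The genes that equip alkaline phosphatase with its cofactor and anchor were listed next. Zinc reaches the enzyme in the secretory pathway through the transporters Slc30a5, Slc30a6 and Slc30a7. Slc30a5 read 7.29, 7.23 and 7.12 in controls and 6.93, 6.73 and 6.75 in KO-labelled arrays and fell by 0.41 (SE 0.09, limma adjusted p = 0.0366). It kept that call in 1 of 6 fits that leave out 1 array, the one without Gata6 KO replicate 1 (0.0462), and lost it in the others (0.0706 to 0.136). Slc30a6 and Slc30a7, at -0.15 (SE 0.08) and 0.15 (SE 0.08), did not pass (limma adjusted p = 0.286 and 0.285). Of 9 zinc genes 2 fell, the other being the uptake transporter Slc39a14, by 0.89 (SE 0.15), which lost the call without Gata6 KO replicate 1 or 2 (0.0607 and 0.0590). Of 28 genes of GPI anchor synthesis 2 rose, Pigk, part of the transamidase that attaches the anchor, and Pigm, a mannosyltransferase, by 0.39 and 0.52. That is 7.14% of the list, near the 8.24% of all genes that passed. Both calls were also lost with quantile normalization and relative to the epithelial markers. The median of that list was 0.08, and neither call held without control replicate 1 or 3 or any 1 of the KO-labelled arrays (0.0568 to 0.156). Of 19 other GPI-anchored proteins the dipeptidase Dpep1 and the aminopeptidase Xpnpep2 fell, as also counted among the hydrolases, while the prion protein gene Prnp and Reck, a protease inhibitor, rose, by 1.39 and 0.34. For Dpep1 the call was lost without control replicate 2 or 3 and without Gata6 KO replicate 1 or 2 (0.0797 to 0.123), and Reck without any array but Gata6 KO replicate 1 (0.0768 to 0.161).

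The substrates of the intestinal enzyme were covered by lists of their partners. In these lists, the other phosphatases and the transcription factors, 14.29% to 31.25% of the genes passed, against 8.24% of all genes, in lists of 5 to 21 genes. For extracellular nucleotides, 3 of 16 genes fell and 2 rose: Pnp, which splits nucleosides inside the cell, fell by 1.25 (SE 0.18), and the ectoenzyme Enpp3 by 0.83 (SE 0.10), while the ATP-gated channel P2rx4 rose by 0.80 (SE 0.08). The other called genes were the receptors P2ry2, lower, and P2ry1, higher, the latter named after its value was seen and lost without any array but control replicate 2 (0.0695 to 0.128). P2ry2 lost its call without any array but Gata6 KO replicate 1 (0.0564 to 0.0952). The ectonucleotidase Nt5e read 5.00 and 5.28 in the 2 groups and did not pass (limma adjusted p = 0.411). For endotoxin and bacterial pattern recognition, 3 of 13 genes rose and none fell. The bacterial pattern receptor Tlr2 rose by 1.31 (SE 0.18), a call kept without any 1 array. The endotoxin receptor Tlr4 rose by 0.94 (SE 0.17) and its coreceptor Cd14 by 1.23 (SE 0.23). Ly96 and Lbp, named after their values were seen, did not pass (limma adjusted p = 0.507 and 0.574). For Tlr4 the call was lost without control replicate 1 or 3 and without Gata6 KO replicate 1 or 2 (0.0582 to 0.0933). For Cd14 it was lost in the fits that left out control replicate 2 or 3 and Gata6 KO replicate 1 or 2 (0.0625 to 0.0939). For phosphate and calcium 2 of 9 rose, the calcium exporters Slc8a1 by 1.25 and Atp2b1 by 0.48, the latter lost without any array but control replicate 2 (0.0610 to 0.123). The phosphate transporters of that list, Slc34a2, Slc20a1, Slc20a2 and Xpr1, named after their values were seen, did not pass (limma adjusted p = 0.347 to 0.908). For phosphorylated B vitamins the riboflavin transporter Slc52a3 was the 1 of 5 that fell, by 1.17 (SE 0.15). Of 18 other phosphatases Plpp1 and Pxylp1 rose, by 0.92 and 0.42, and the acid phosphatase Acpp fell by 0.78; Pxylp1 lost its call without any 1 array (0.0545 to 0.136) and Acpp without any but control replicate 2 (0.0608 to 0.142). Of 21 transcription factors of the enterocyte Pparg and Foxa1 rose, by 1.99 and 0.87, and Hnf4g fell by 0.54, a call lost without any 1 array (0.0522 to 0.126); Foxa1 lost its call without Gata6 KO replicate 2 (0.0582).

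**Figure D4:**
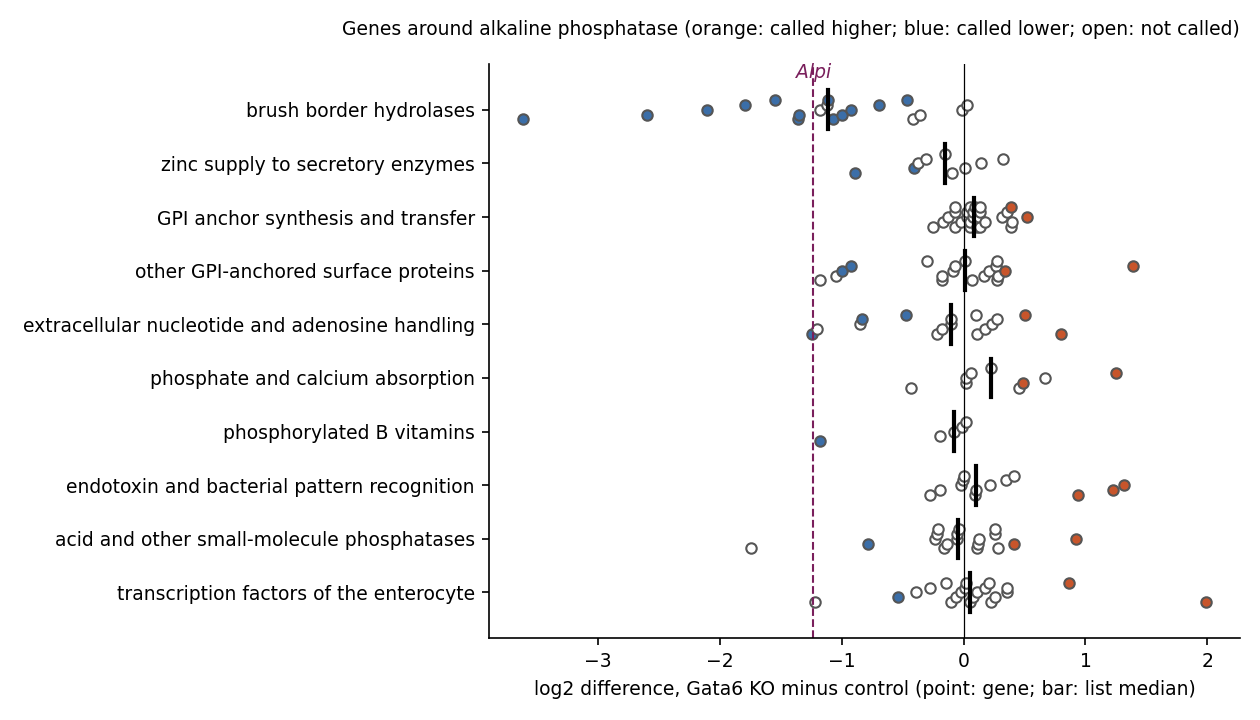
Log2 difference, Gata6 KO minus control, of each gene in 10 lists around alkaline phosphatase, with the list median as a bar and Alpi as a dashed line. The median of the hydrolases lies near Alpi, at -1.11, and the medians of the other 9 lists lie between -0.16 and 0.23.

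Finally, the genes whose pattern over the 6 arrays was most like that of Alpi were found by the root mean square (RMS) difference between profiles, each centred on its own mean. Alpi was the member with a range of at least 1, at 2.03. The nearest was Vnn1, a pantetheinase, with an RMS difference of 0.15 and a Pearson r of 0.99 over 6 arrays. It read 7.34, 8.37 and 8.43 in controls and 6.80, 6.84 and 7.47 in KO-labelled arrays, overlapping by 1 mouse, and did not pass (limma adjusted p = 0.103). Treh, the brush border trehalase, which also overlapped by 1 mouse, followed at an RMS difference of 0.17, with 4.05, 5.12 and 5.22 in controls and 3.52, 3.27 and 4.08 in KO-labelled arrays (limma adjusted p = 0.0812). Apob, the chylomicron protein, Guca2b, the peptide uroguanylin, and Tm4sf4, a membrane protein, followed at 0.19, 0.20 and 0.22. Their groups did not overlap and they passed in the same test, at log2 differences of -1.22, -1.07 and -1.46. Apob lost that call without control replicate 3 and without Gata6 KO replicate 1 or 2 (0.0542 to 0.0600), Guca2b without any array but control replicate 1 (0.0630 to 0.115), and Tm4sf4 kept it without any 1 array. All 6 genes had control replicate 1 as the lowest control and Gata6 KO replicate 3 as the highest KO-labelled array. The likeness used these same arrays and is a description.

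**Figure D5:**
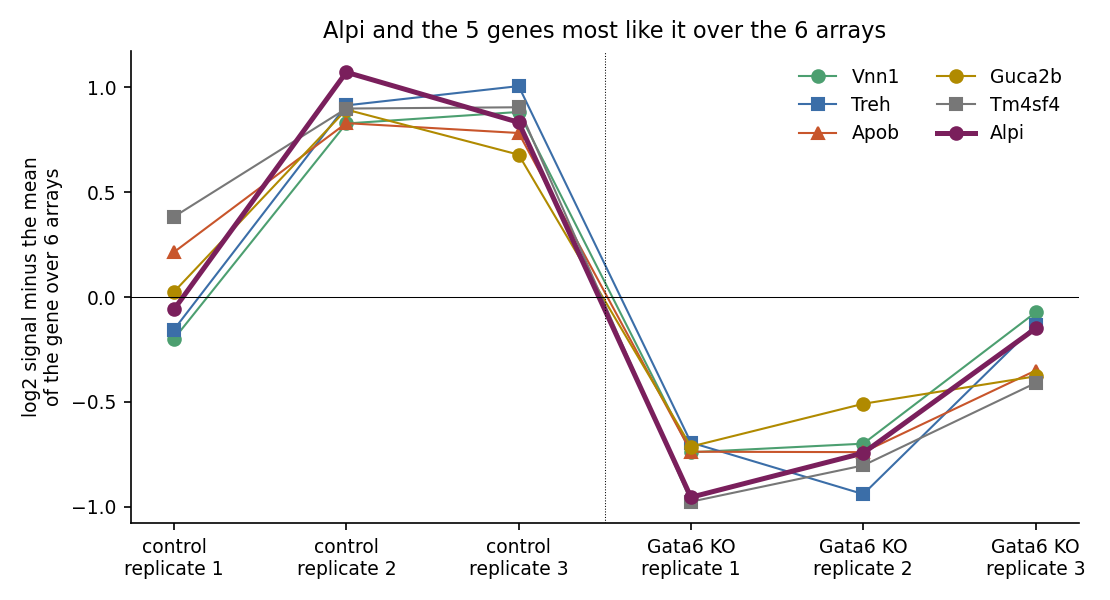
Log2 signal of Alpi and of the 5 genes most like it, each minus its own mean over the 6 arrays, for control replicates 1 to 3 and Gata6 KO replicates 1 to 3. The lines join values of 1 gene; in all 6 genes control replicate 1 lies lowest among the controls and Gata6 KO replicate 3 highest in its group.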

How the data were processed

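Total RNA of whole ileum from 3 control mice and 3 mice labelled Gata6 KO was measured on Affymetrix mouse Gene 1.0 ST arrays. The deposited table holds 1 log2 value for each probe set on each array. Per the submitters' processing notes the authors used Affymetrix Expression Console; how background, normalization and probe summary were handled is not stated there, and base 2 was taken from the spread of values. Of 35557 probe sets, 21789 carry 1 symbol, 1621 several and 12147 are not listed; the brightest probe set with 1 symbol per gene gave 19938 genes. The number of arrays limits the precision, and arrays of a group correlated at 0.987 to 0.992.

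The comparison was fitted in limma 3.58.1 under R 4.3.3 (lmFit, eBayes, Gata6 KO minus control, two-sided), with Benjamini-Hochberg adjustment over all genes, a threshold of 0.05 and no filter on dim genes. The fit was tested on simulated data. SE and 95% intervals are moderated. Mice are separate animals; no batch is given in the labels. The members and lists were chosen with earlier results of these data known. Named genes were the members, the GATA factors, up to 4 genes of smallest p per list (3 for cell type markers), the 3 zinc transporters of the secretory pathway and the 5 genes most like a member with a range of at least 1. List genes without a probe set of 1 symbol were not analysed here; older symbols were matched through the RefSeq gene table, which gave Pxylp1, Plpp1 and Slc51a among others. Lists are described by counts; no set test was run. Differences between members used exact permutation tests in SciPy 1.17.1, over 6 pairs. Promoters are 250 bases before each RefSeq start (GRCm38.p6), aligned with Biopython 1.88 at scores of 1 for a match, -1 for a mismatch, -3 to open and -0.5 to extend a gap. Alternatives covered scaling, dim genes, probe sets, moderation, weights per array, left-out arrays and a block on the replicate number. Figures were drawn with matplotlib 3.10.9.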

Additional observations from a re-analysis of the deposited data

How the results depend on the processing

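Directions of Alpi, Akp3 and Alpl were the same under all alternatives run for each. The log2 difference of Alpi passed with arrays centred on their medians (-1.17), quantile normalization (-1.27), values relative to the epithelial markers (-1.32) and tests limited to genes with a mean of at least 4 or 6 (-1.23 in both), and ran from -1.57 to -1.003 over the 6 fits without 1 array. It did not pass with every probe set (adjusted p = 0.142), trend and robust moderation (0.0902), array weights (0.0640), no moderation (0.230) or the mean of all probe sets (0.0610). Akp3 passed with array weights (-0.31) and was not tested under the filters on dim genes. Alppl2 reversed with quantile normalization (0.0348) and without control replicates 1 and 3 (0.17), and ran from -0.18 to 0.07 without 1 array.

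The replicate number as a block gave Alpi -1.23 (limma adjusted p = 0.0262), which passed, with 766 genes called higher and 475 genes called lower. Same-numbered arrays deviated from their group means with correlations of 0.04, -0.04 and 0.15. Arrays of different number gave -0.12 to 0.08. These values do not show whether same-numbered mice share anything beyond the number, and the labels give no pairing. No other member changed its call with the block.

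The genes called higher numbered 1562 with arrays centred, 632 relative to the epithelial markers, 491 with every probe set, 168 without moderation, 25 without control replicates 1 and 3 and 320 to 806 without 1 array. The genes called lower numbered 1010 relative to the epithelial markers, 397 with a mean of at least 6, 406 with every probe set, 106 without moderation, 11 without control replicates 1 and 3 and 277 to 597 without 1 array. The cause was not tested. Of 51 named genes that passed, 24 did so in each fit without 1 array. Pdxk and Pdxp, neither of which passed, reversed with quantile normalization (-0.0413 and 0.0114), without control replicate 3 (-0.032 and 0.0192) and without control replicates 1 and 3 (-0.10 and 0.27); Pdxk did so relative to the epithelial markers (-0.0667) and without Gata6 KO replicate 2 (-0.05), and ran from -0.05 to 0.076 without 1 array, and Pdxp from -0.25 to 0.0192. Gata4 was 0.0217 without control replicates 1 and 3. Signal over background is not known for these arrays, which limits what can be said of Akp3 and Alppl2.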

Other observations

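The protein-coding neighbours of both alkaline phosphatase loci, 5 on each side in the RefSeq annotation, were looked at after the values of the members were seen. Around the cluster of Alppl2, Alpi and Akp3, 9 of 10 neighbours were measured and none passed in the limma fit, with 2 at an unadjusted p under 0.05; the one with the smallest p was Chrnd, a subunit of the muscle acetylcholine receptor, at a log2 difference of -0.34 (SE 0.09, limma adjusted p = 0.0640). Around Alpl all 10 were measured and 2 rose. Over all genes 8.24% passed (4.99% of all genes higher), and with 10 neighbours at a locus neither count is read as a result about the loci. The neighbours that rose were Rap1gap, which switches off the GTPase Rap1, by 0.49 (SE 0.08, limma adjusted p = 0.0165), and Ece1, which activates endothelin, by 0.32 (SE 0.07, limma adjusted p = 0.0327). Both were named after their values were seen. For Rap1gap the call was lost without control replicate 3 (0.0651) and without Gata6 KO replicate 2 or 3 (0.0749 and 0.0674), and Ece1 without any 1 array (0.0547 to 0.108).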
